A study of Homo sapiens with 240 samples.

Results

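The late response of HEK 293T cells with intact AMPK to the AMPK activator 991 was examined in 9 of the 240 RNA libraries of the study, 3 given DMSO at 0 h, 3 given 991 for 8 h and 3 given 991 for 16 h. These libraries were chosen by genotype (AMPK WT), treatment and time, and 12976 of the 27234 genes listed were kept because their level was at least 1 TPM (reads scaled for transcript length and library size) in 3 or more of the 9. HEK 293T is a line of human embryonic kidney origin that carries the SV40 large T antigen, and the cells were grown in DMEM with 10% serum. The study asked how 991 and mitochondrial poisons act on lysosomal and mitochondrial genes, with AMPK WT and KO cells, and with cells altered in FNIP1, TFEB and TFE3, ESRRA or PGC1A. AMPK KO cells given 991 for the same hours (3 libraries each at 0, 8 and 16 h) and the control arms of the 4 other experiments, labelled TFEB_TFE3_WT, ESRRA_WT, FNIP1_WT (FNIP1 knockout cells with WT FNIP1 put back) and siControl, served for comparison. DMSO was given only at 0 h, so exposure to 991 and hours in culture cannot be told apart within AMPK WT cells. How many clones the AMPK KO cells stand for is not given in the sources used here, and neither is whether replicates were separate cultures, so the spread behind each p-value may be technical.

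AMPK is a kinase that is switched on when cellular energy runs low, and 991 activates it directly at a site formed by its catalytic and β subunits. Active AMPK phosphorylates FNIP1, the partner of folliculin (FLCN), which releases the transcription factors TFEB and TFE3 to enter the nucleus and turn on genes of lysosomes and autophagy through E-box sites. A separate pathway, the integrated stress response, raises translation of the transcription factor ATF4, which turns on genes of amino acid synthesis and transport through C/EBP-ATF sites. Both kinds of site were looked for in promoter windows, and 4 are shown because their genes carry the stress and the folliculin results described here.

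The windows come from RefSeq (GRCh38.p14), run from 250 bases before to 50 after the start that RefSeq's window table uses, and are printed 5′ to 3′ along the gene. Capitals mark TGATGNAA, the C/EBP-ATF core, in ASNS (chr7:97872359-97872658, minus strand) and CHAC1 (chr15:40953221-40953520, plus strand), and TCACGTG, the E-box of lysosomal genes, in FNIP1 (chr5:131796968-131797267, minus strand) and RRAGC (chr1:38859723-38860022, minus strand), each on either strand.
ASNS: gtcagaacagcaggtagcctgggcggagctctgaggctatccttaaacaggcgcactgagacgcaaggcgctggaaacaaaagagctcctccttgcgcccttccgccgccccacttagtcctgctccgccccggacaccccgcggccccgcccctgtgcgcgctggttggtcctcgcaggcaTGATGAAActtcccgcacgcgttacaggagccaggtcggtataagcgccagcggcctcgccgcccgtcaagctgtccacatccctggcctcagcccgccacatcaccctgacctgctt
CHAC1: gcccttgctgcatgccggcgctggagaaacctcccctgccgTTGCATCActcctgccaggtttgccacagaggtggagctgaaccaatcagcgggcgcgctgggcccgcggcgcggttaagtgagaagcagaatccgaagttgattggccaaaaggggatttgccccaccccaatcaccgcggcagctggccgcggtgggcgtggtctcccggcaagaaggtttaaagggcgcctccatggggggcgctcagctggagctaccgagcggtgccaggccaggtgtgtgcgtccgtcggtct
FNIP1: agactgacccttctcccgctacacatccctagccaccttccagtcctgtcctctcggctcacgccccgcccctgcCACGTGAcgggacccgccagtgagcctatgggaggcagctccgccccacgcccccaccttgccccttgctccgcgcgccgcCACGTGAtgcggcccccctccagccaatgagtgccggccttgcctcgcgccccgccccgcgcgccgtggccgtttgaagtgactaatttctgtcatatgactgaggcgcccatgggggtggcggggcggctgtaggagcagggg
RRAGC: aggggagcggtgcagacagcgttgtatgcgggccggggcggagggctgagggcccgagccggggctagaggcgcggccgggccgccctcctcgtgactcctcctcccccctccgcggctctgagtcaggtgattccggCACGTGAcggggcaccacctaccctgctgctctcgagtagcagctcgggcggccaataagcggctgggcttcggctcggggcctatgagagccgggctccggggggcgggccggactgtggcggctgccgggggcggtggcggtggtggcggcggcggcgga
In CHAC1, FNIP1 and RRAGC the capitals read as the reverse complement, and FNIP1 held its E-box at 2 places. The start behind a window is not that of the transcript in the deposited table: it lay 243 bases upstream of it for ASNS, 322 bases downstream for CHAC1, 67 upstream for FNIP1 and 51 downstream for RRAGC. The whole CHAC1 window, with its marked site, thus lies downstream of the start of the deposited transcript. RefSeq windows were matched for 9529 of the genes kept. TGATGNAA stood in 143 of them (1.5%), TCACGTG in 573 (6.01%) and TGACCTTG, an element of ERR receptors, in 65 (0.682%). Among genes that rose at least 1.5-fold at 16 h, 22 of 903 windows (2.44%) held TGATGNAA and 47 (5.2%) held TCACGTG, while among those that fell 6 of 432 (1.39%) held TGATGNAA and 27 (6.25%) held TCACGTG. By list, TGATGNAA stood in 4 of 12 windows of amino acid synthesis genes (33.3%), 3 of 14 of amino acid transporters (21.4%) and 3 of 23 of stress regulators (13%). TCACGTG stood in 5 of 13 windows of the folliculin and Rag genes (38.5%) and in 7 of 31 each of lysosomal hydrolases and membrane proteins (22.6%). Genes with a motif moved in both directions at 8 h, when 42.6% of all genes kept rose and 22.8% fell. At 16 h 43.3% of all genes rose and 26.6% fell. The sets below are too small to be set apart from these shares, and no test was run on them. Of those with TCACGTG, 2 of 5 folliculin and Rag genes rose and 1 fell (LAMTOR4), 3 of 7 hydrolases rose and 3 fell, 1 of 7 membrane proteins rose and 3 fell (MCOLN1 among them), and none of 4 V-ATPase genes rose while 3 fell. Of those with TGATGNAA, 1 of 3 stress regulators rose at 8 h and 1, ATF3, fell. At 16 h 3 of 7 hydrolases with TCACGTG rose and 0 fell, and 2 of 7 membrane proteins rose and 2 fell. Folliculin and Rag genes (2 and 1 of 5) and V-ATPase genes (0 and 3 of 4) gave the same counts as at 8 h. With TGATGNAA, 2 of 3 stress regulators rose at 16 h and 1 fell. Amino acid synthesis genes with it rose in 2 of 4 cases with 0 falls, and transporters in 3 of 3. TGACCTTG stood in 3 of 50 windows of the nuclear respiratory chain (6.0%). These shares describe letters in a window and were not tested. TCACGTG and its reverse complement share the core CACGTG, which reads the same on both strands, so the 2 forms can overlap at 1 place.

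The 9 libraries held an estimated 51000000 to 70200000 reads on the listed genes, and listed TPM summed to 401873 to 407211 per library. The first component of all kept genes (73.2% of the variance) set DMSO apart from both treated times, and the second (13.5%) set 8 h apart from 16 h. DMSO replicate 1 lay at 36.8 on the first component against 24.2 and 28.4 for the other DMSO libraries, and 8 h replicate 1 lay at 18.4 on the second against 7.9 and 8.1. Summed levels of 13 markers of HEK cells (such as VIM and KRT8) were 379 to 407 TPM at 0 h, 404 to 464 TPM at 8 h and 482 to 484 TPM at 16 h. Of the 13, 10 were kept, while PAX2, PAX8 and NEFH were not (means of 0.331, 0.015 and 0.128 TPM at 0 h). Against 0 h, 5 of the 10 rose and 3 fell at 8 h, and 6 and 3 at 16 h, beside 42.6% and 22.8%, and 43.3% and 26.6%, of all genes. Of 13 nephron markers 5 were listed at 0 in every library, and their sum was 12.6 to 15.8 TPM at 0 h against 7.5 to 8.7 TPM later, so the kidney label rests on the line and not on nephron genes. Markers of blood cells summed to at most 2.1 TPM and of endothelial cells to at most 0.5 TPM. In such bulk libraries, fewer cells of a type and less RNA per cell cannot be told apart.

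Against 0 h, 5528 genes rose at 8 h (42.6% of genes tested) and 2960 fell (22.8%), by limma on log2(TPM + 1) at an adjusted p under 0.05. At least 1.5-fold changes were fewer, with 1035 rises (7.98%) and 507 falls (3.91%). At 16 h 5615 genes rose (43.3%) and 3456 fell (26.6%), of which 1152 (8.88%) and 778 (6.0%) moved at least 1.5-fold. The excess of rises depended on scaling, because the median of all genes sat at 0.09 (log2) at 8 h and 0.08 at 16 h, and with median-ratio scaling, which takes that shift away, 4217 rose and 4299 fell at 8 h and 4651 and 4354 at 16 h. Both times share the same DMSO libraries, so their values are given side by side and no overlap between them is counted. From 8 h to 16 h, a comparison free of DMSO, 1773 genes rose (13.7%) and 2098 fell (16.2%), with 53 (0.408%) and 93 (0.717%) past 1.5-fold, or 2048 and 1726 with median-ratio scaling at any size. Without 8 h replicate 1 the counts from 8 h to 16 h were 1137 and 1160. Between 8 h or 16 h and DMSO, libraries of both groups did not overlap for 67.7% and 75.4% of genes, and between 8 h and 16 h for 50%. The 12 largest rises and falls of a comparison were picked among genes without such overlap, so for them its absence follows from the choice. Shares of all genes given beside list counts are those of the fit without rescaling, and apply to every list below. List counts under another setting are to be compared with all genes under that same setting. Below, a change is given on the log2(TPM + 1) scale with its standard error, and changes near 1 TPM are understated on it. Levels of 3 libraries are TPM in the order of replicates 1, 2 and 3.

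Regulators of the integrated stress response kept rising between 8 h and 16 h. Of 30 listed genes 28 were kept. Of these, 18 of 28 rose, 4 fell and 6 missed the threshold at 8 h, at a median of 0.41 against 0.09 over all genes, and 22 of 28 rose, 3 fell and 3 missed the threshold at 16 h, at 0.70 against 0.08. From 8 h to 16 h 20 of 28 rose, 1 fell and 7 missed the threshold, at 0.40 against -0.02. NUPR1, a small stress-induced chromatin protein gene (GRCh38, chromosome 16, 28537341 to 28539174), stood at 1.47, 0.898 and 0.993 TPM at 0 h, 1.70, 4.12 and 3.04 TPM at 8 h and 10.5, 11.6 and 11.5 TPM at 16 h. The 3 times did not overlap, and 8 h replicate 1 lay nearest to DMSO. The rise was 0.86 ± 0.13, adjusted p = 5.3e-08 at 8 h and 1.68 ± 0.13, adjusted p = 6.1e-17 from 8 h to 16 h. DDIT4, which encodes an inhibitor of mTORC1 (chromosome 10, 72273919 to 72276039), stood at 18.97, 17.7 and 16.2 TPM, then 28.1, 57.1 and 54.4 TPM, then 87.4, 93.2 and 94 TPM. Again the times did not overlap and 8 h replicate 1 was the lowest of its group. DDIT4 rose by 1.29 ± 0.15, adjusted p = 1.1e-11 at 8 h and by a further 1.03 ± 0.15, adjusted p = 1e-07. CHAC1, a glutathione-degrading enzyme gene whose RefSeq window is shown above (chromosome 15, 40953149 to 40956519), stood at 4.61, 2.02 and 2.69 TPM, 4.84, 9.52 and 9.20 TPM and 12.99, 14.7 and 14.1 TPM. Its 8 h replicate 1 was close to DMSO replicate 1, and all 16 h libraries lay above all others. The CHAC1 changes were 1.11 ± 0.16, adjusted p = 5.3e-09 at 8 h and 1.91 ± 0.16, adjusted p = 1.5e-17 at 16 h.

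**Figure D1:**
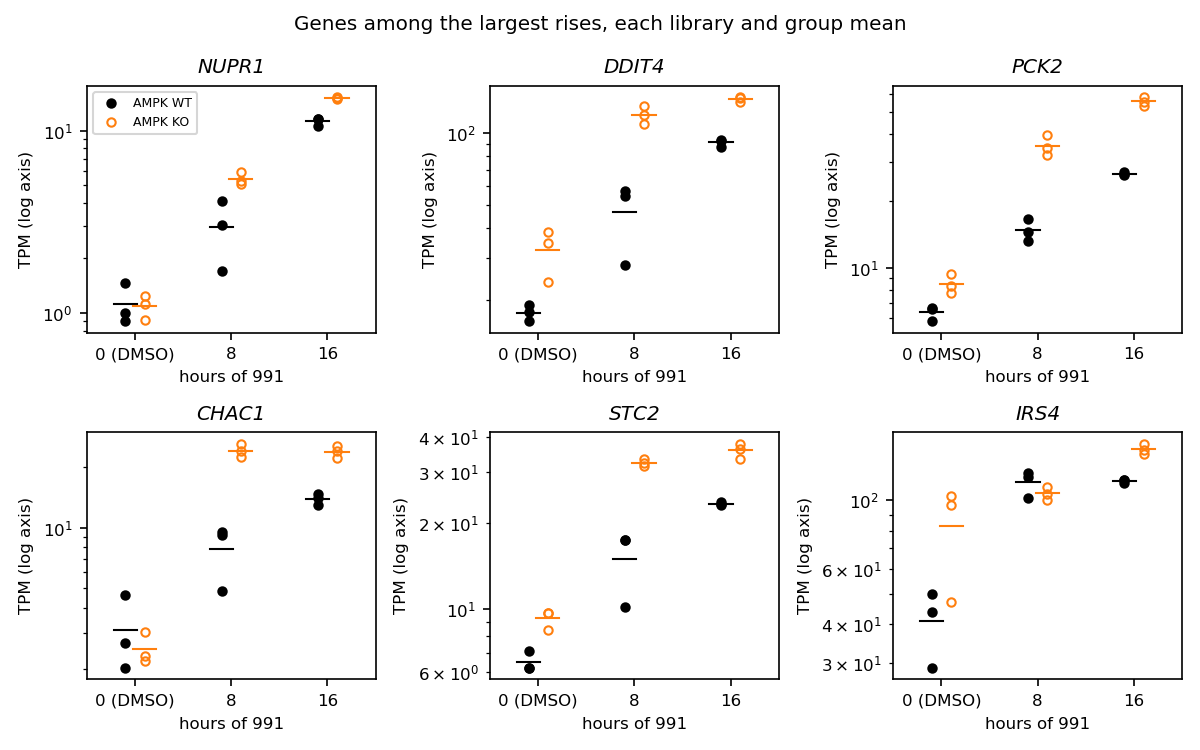
Levels of 6 genes among the largest rises (TPM, log axis) in each library of AMPK WT cells (filled) and AMPK KO cells (open) at 0 h of DMSO and 8 and 16 h of 991, with a line at each group mean. NUPR1, DDIT4, PCK2, CHAC1 and STC2 climbed from 0 h to 8 h to 16 h in WT cells, while IRS4 was as high at 8 h as at 16 h (mean 115 and 116 TPM).

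STC2, a secreted glycoprotein gene, rose by 1.05 ± 0.11 at 8 h and 1.70 ± 0.11 at 16 h. DDIT3, which encodes the transcription factor CHOP, stood at 7.05, 6.56 and 6.79 TPM at 0 h, 13.1, 15.03 and 15.96 TPM at 8 h and 21.2, 21.3 and 21.7 TPM at 16 h. Its groups did not overlap and its change at 16 h was 1.52 ± 0.08, adjusted p = 7.8e-27. ATF4 itself stood at 419, 386 and 358 TPM, 538, 657 and 651 TPM and 775, 781 and 772 TPM, a rise of 1.00 ± 0.06, adjusted p = 1.2e-22 at 16 h. Not every factor of this response moved that way. ATF5, a close relative of ATF4, fell by 0.79 ± 0.07 at 16 h from 16.1 ± 0.678 to 8.91 ± 0.809 TPM, and ATF3, a repressor of the same family that is also an immediate early gene, changed by -0.81 ± 0.12 at 8 h and -0.36 ± 0.12 at 16 h (-0.13, adjusted p = 0.37 by limma without DMSO replicate 1). GDF15, which encodes a stress cytokine, did not pass at 16 h (0.01 ± 0.23, adjusted p = 0.97), with 2.17, 0.591 and 0.662 TPM at 0 h and 0.843, 1.17 and 1.14 TPM at 16 h. With each library left out in turn, 16 to 18 stress regulators rose at 8 h and 18 to 20 from 8 h to 16 h.

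Enzymes of amino acid synthesis rose late. At 8 h 7 of 19 rose, 6 fell and 6 missed the threshold, and with median-ratio scaling 4 rose and 9 fell, so no direction is given for that time. At 16 h 11 of 19 rose, 2 fell and 6 missed the threshold, at a median of 0.26, and from 8 h to 16 h 16 of 19 rose, 2 fell and 1 missed the threshold, at 0.36 (12 to 16 rises with 1 library left out). ASNS, asparagine synthetase (chromosome 7, 97852117 to 97872165), stood at 75.3, 76.2 and 72.5 TPM at 0 h, 72.9, 99.2 and 89.9 TPM at 8 h and 181, 192 and 179 TPM at 16 h. Its 8 h replicate 1 sat within the DMSO range while every 16 h library lay above all others. ASNS rose by 1.08 ± 0.07, adjusted p = 5.5e-21 from 8 h to 16 h. PCK2, the mitochondrial phosphoenolpyruvate carboxykinase gene, stood at 5.77, 6.64 and 6.58 TPM, 13.3, 16.6 and 14.5 TPM and 26.3, 27.02 and 26.1 TPM, with no overlap between times. It rose by 1.11 ± 0.08 at 8 h and by a further 0.80 ± 0.08. ALDH1L2, a mitochondrial folate enzyme gene, went from 5.58 ± 1.45 TPM at 8 h to 11.1 ± 0.798 TPM at 16 h (0.90 ± 0.11, adjusted p = 1.3e-09). CBS, the first enzyme of transsulfuration, went the other way against 0 h (-0.63 ± 0.09 at 8 h and -0.39 ± 0.09 at 16 h), a gene with a near-identical copy in GRCh38 whose level is uncertain. ALDH18A1, an enzyme of proline synthesis, fell from 8 h to 16 h (-0.28 ± 0.03).

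Transporters of amino acids followed a like course. At 8 h 8 of 16 rose, 5 fell and 3 missed the threshold, near the shares of all genes (42.6% and 22.8%). At 16 h 13 of 16 rose, 3 fell and 0 missed the threshold, against 43.3% and 26.6% of all genes, at a median of 0.39. SLC7A11, the cystine importer gene, stood at 2.62, 2.81 and 2.66 TPM at 0 h, 2.73, 4.28 and 3.91 TPM at 8 h and 9.68, 10.3 and 9.53 TPM at 16 h. The rise lay between 8 h and 16 h for the most part (1.24 ± 0.08, adjusted p = 4.3e-20). SLC6A9, a glycine transporter gene, was first lower than DMSO at 8 h (-0.37 ± 0.12, adjusted p = 0.0051), where replicate 1 (2.27 TPM) lay far below the others (4.25 and 4.20 TPM), and then above it at 16 h (0.54 ± 0.12, adjusted p = 4.6e-05). The 8 h fall of SLC6A9 did not pass without 8 h replicate 1 (-0.14, adjusted p = 0.3) or without DMSO replicate 1 (-0.24, adjusted p = 0.096). SLC38A9, which senses arginine at the lysosome, rose at both times (0.75 ± 0.08 and 1.00 ± 0.08), and SLC7A6, an exchanger of cationic amino acids, fell at both (-0.58 ± 0.07 and -0.56 ± 0.07).

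Cytosolic tRNA synthetases, which charge tRNAs with amino acids, rose between 8 h and 16 h in 13 of 19 genes, with 0 falls, at a median of 0.28. At 16 h against 0 h 12 of 19 rose, 3 fell and 4 missed the threshold. At 8 h 3 of 19 rose, 8 fell and 8 missed the threshold, with 1 and 12 under median-ratio scaling and 3 and 3 under quantile normalization, so the 8 h direction is not settled. YARS, the tyrosyl enzyme, stood at 101.2, 127 and 121 TPM at 8 h and 163, 167 and 163 TPM at 16 h (0.50 ± 0.07, adjusted p = 4.1e-08). MARS, the methionyl enzyme, rose by 0.54 ± 0.04 and SARS, the seryl enzyme, by 0.52 ± 0.06. FARSA, a subunit of the phenylalanyl enzyme, was lower than DMSO at 16 h (-0.38 ± 0.04) and its partner FARSB was higher at 8 h (0.38 ± 0.08).

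Chaperones of the endoplasmic reticulum and regulators of its unfolded protein response did not move as one group at 16 h, when 9 of 23 rose, 5 fell and 9 missed the threshold. These counts were near the shares of all genes (43.3% that rose and 26.6% that fell), and median-ratio scaling gave 7 and 7. HSPA5, the main chaperone of that compartment, stood at 168, 187 and 182 TPM at 0 h, 226, 153 and 159 TPM at 8 h and 137, 136 and 133 TPM at 16 h. Every 16 h library lay below every other, and 8 h replicate 1 was the highest of the 9. HSPA5 fell by 0.40 ± 0.06 against 0 h (adjusted p = 5.3e-09). HSP90B1, another chaperone, rose by 0.63 ± 0.08, and ERN1, a sensor of unfolded proteins, by 0.55 ± 0.08.

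Each of the 12 largest falls at 8 h and the 12 largest at 16 h was of a gene whose highest DMSO library was replicate 1. These falls kept direction and call without it, which their choice for large changes without overlap favours. FOSB and EGR3, among the 3 largest falls at either time, belong to the immediate early genes, which serum and growth factors switch on within minutes. Of 35 listed 25 were kept, and at 8 h 0 of 25 rose, 20 fell and 5 missed the threshold, at a median of -0.86. At 16 h 0 of 25 rose, 20 fell and 5 missed the threshold, at -0.78. FOSB, a subunit of the AP-1 transcription factor (chromosome 19, 45467995 to 45475179), stood at 26.1, 5.37 and 9.57 TPM at 0 h, 0.608, 0.543 and 0.480 TPM at 8 h and 0.441, 0.388 and 0.325 TPM at 16 h. DMSO replicate 1 was the highest by far. The lowest DMSO library lay above every treated one, which the choice of the largest falls required. The FOSB change was -2.99 ± 0.34, adjusted p = 4e-12 at 8 h and -3.14 ± 0.34, adjusted p = 4.7e-13 at 16 h. EGR3, a zinc finger factor of the same kind, stood at 11.01, 3.02 and 5.50 TPM under DMSO and at 0.120 to 0.128 TPM at 8 h and 0.0550 to 0.0790 TPM at 16 h (-2.67 ± 0.23, adjusted p = 4.2e-17). FOS itself fell by 1.82 ± 0.14 at 8 h from 5.69, 3.12 and 3.62 TPM to 0.449, 0.517 and 0.319 TPM. The 3 genes kept their fall and their call with each single library left out. Between 8 h and 16 h 1 member rose (ATF3), 1 fell (SPRED2, a brake on Ras signalling) and 23 did not pass.

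**Figure D2:**
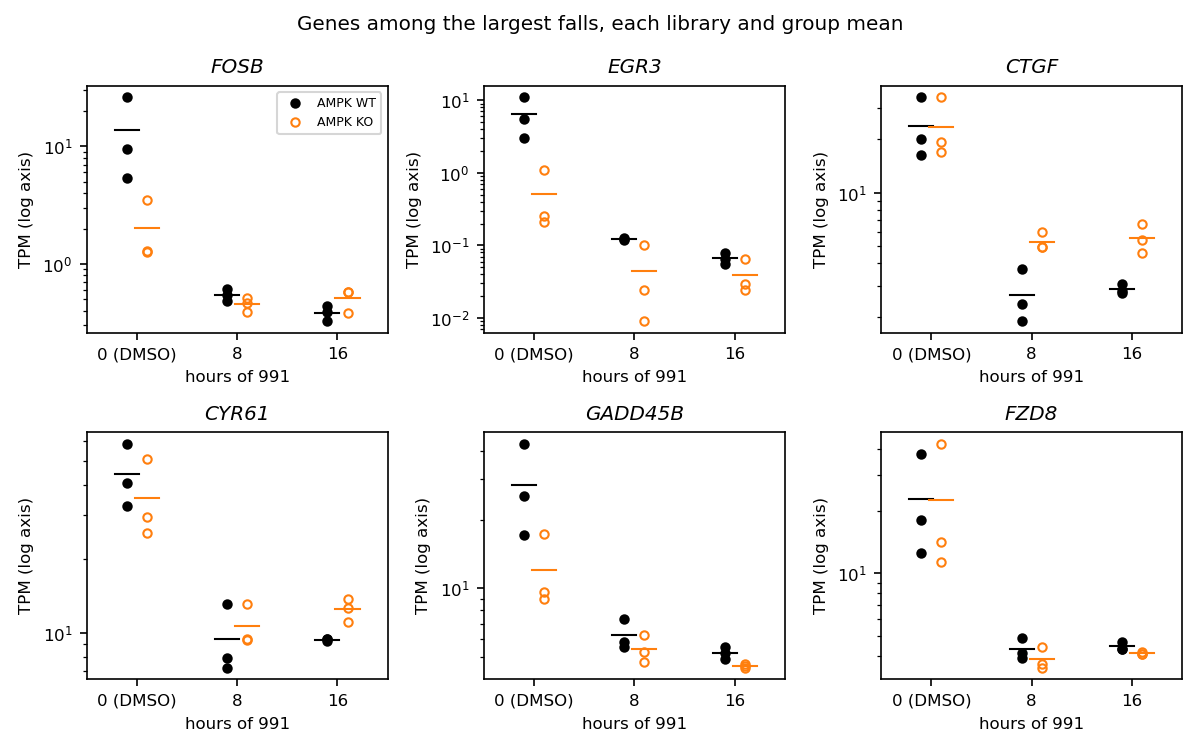
Levels of 6 genes among the largest falls (TPM, log axis) in each library of AMPK WT cells (filled) and AMPK KO cells (open) at 0 h of DMSO and 8 and 16 h of 991, with a line at each group mean. DMSO replicate 1 of WT cells is the highest WT library for each gene (FOSB 26.1 TPM). Every treated WT library lies below every WT DMSO library, which the choice of these genes required.

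Targets of the coactivator YAP split. At 16 h 9 of 19 rose, 7 fell and 3 missed the threshold, against 43.3% that rose and 26.6% that fell of all genes. The list as a whole thus had no common direction. CTGF, a matricellular protein gene (chromosome 6, 131948177 to 131951378), stood at 34.3, 16.3 and 19.96 TPM, 3.70, 1.89 and 2.35 TPM and 2.74, 2.79 and 3.07 TPM at 0, 8 and 16 h. The DMSO libraries differed among themselves, and the treated ones stood well below all of them. CTGF changed by -2.71 ± 0.22, adjusted p = 1.4e-17 at 8 h. CYR61, its relative, stood at 58.6, 32.8 and 40.5 TPM, 13.1, 7.20 and 7.88 TPM and 9.39, 9.42 and 9.22 TPM (-2.08 ± 0.19 at 16 h). GADD45B, a stress and growth arrest gene, fell by 2.15 ± 0.23 at 16 h. ASAP1, an activator of Arf GTPases, rose instead (0.72 ± 0.09 at 8 h), and so did AJUBA, a LIM domain scaffold (0.52 ± 0.07 at 16 h). ANKRD1, a nuclear cofactor gene, rose from 8 h to 16 h (0.77 ± 0.12, adjusted p = 3.5e-07).

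Targets of BMP and TGFβ signalling were lower at both times. Of 19 listed 17 were kept, and at 8 h 2 of 17 rose, 12 fell and 3 missed the threshold, at a median of -0.68, against 2 rises and 12 falls at 16 h, at -0.48. ID1, an inhibitor of basic helix-loop-helix factors, stood at 82.3, 53.3 and 61.02 TPM at 0 h, 22.4, 22.8 and 23.9 TPM at 8 h and 26.6, 27.9 and 27.1 TPM at 16 h. No treated library reached the DMSO range (-1.45 ± 0.14, adjusted p = 2.2e-14 at 8 h). SMAD6, an inhibitor of BMP receptors, fell by 1.23 ± 0.15 at 8 h and rose again by 0.52 ± 0.15 from 8 h to 16 h. The ligand genes BMP4 and BMP7 rose at 16 h (0.32 ± 0.08 and 0.24 ± 0.05).

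Genes turned on by p53 also fell more often than they rose, with 3 of 21 rose, 11 fell and 7 missed the threshold at 8 h and 5 of 21 rose, 12 fell and 4 missed the threshold at 16 h (7 falls without DMSO replicate 1). All genes rose in 42.6% and fell in 22.8% of cases at 8 h, and in 43.3% and 26.6% at 16 h. SV40 large T antigen, which 293T cells carry, binds p53. CDKN1A, which encodes the cell cycle inhibitor p21, stood at 29.3, 15.5 and 19.4 TPM at 0 h, 11.3, 8.52 and 8.92 TPM at 8 h and 13.7, 15.3 and 14.97 TPM at 16 h. It was lowest at 8 h (-1.04 ± 0.17, adjusted p = 2e-07) and rose from there (0.57 ± 0.17, adjusted p = 0.0074). PLK2 and PLK3, polo-like kinases that serum also induces, fell by 1.12 ± 0.15 and 0.93 ± 0.13 at 16 h. SESN2, a sestrin that restrains mTORC1 and is also a target of ATF4, rose by 0.50 ± 0.09 at 8 h and 0.92 ± 0.09 at 16 h. BBC3, a proapoptotic BH3-only gene, rose from 8 h to 16 h (0.72 ± 0.13).

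Other large falls were of genes outside these lists. PCDH7, a protocadherin gene, stood at 69.4, 51.3 and 57.9 TPM, 12.3, 12.8 and 12.2 TPM and 15.1, 15.3 and 15.5 TPM (-2.16 ± 0.20, adjusted p = 2.8e-15 at 8 h). AMD1, which makes decarboxylated S-adenosylmethionine for polyamine synthesis, stood at 207, 145 and 163 TPM, 46.1, 53.7 and 54.6 TPM and 58.2, 55.3 and 55.1 TPM (-1.71 ± 0.14, adjusted p = 8.2e-18 at 8 h). CYP26A1, which breaks down retinoic acid, fell to 4.20 to 4.92 TPM at 8 h from 14.7 to 18.8 TPM and stood at 6.08 to 6.45 TPM at 16 h. ISYNA1, the inositol synthesis enzyme gene, fell in steps from 102.1, 62.5 and 75.4 TPM to 39.8, 27.2 and 26.8 TPM and 20.9, 21.7 and 21.7 TPM, with DMSO and 8 h replicate 1 the highest of their groups. NEAT1, a long noncoding RNA of nuclear paraspeckles, stood at 71.1, 29.1 and 47.01 TPM, 25.4, 11.3 and 9.70 TPM and 9.36, 9.76 and 8.44 TPM (-2.21 ± 0.47, adjusted p = 3.6e-05 at 16 h), again highest in DMSO replicate 1.

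The rise at 8 h included genes of mitosis and reached full height by then. Of 39 genes of G2 phase and mitosis, 38 rose at 8 h, 0 fell and 1 did not pass, at a median of 0.53. At 16 h 35 of 39 rose, 1 fell and 3 missed the threshold, at 0.49. Between the times 3 rose and 11 fell, or 5 and 7 when those groups were fitted alone, and falls numbered 4 without 8 h replicate 1 and 7 without 16 h replicate 3. CDK1, the kinase that drives entry into mitosis, stood at 56.01, 57.7 and 57.5 TPM at 0 h, 109.2, 91.6 and 94.6 TPM at 8 h and 91.5, 89.8 and 90.96 TPM at 16 h (a gene chosen after its values were seen). HMMR, a spindle protein gene, rose by 1.00 ± 0.07, adjusted p = 2e-20 at 8 h, and the kinase genes AURKA and TTK by 0.91 ± 0.07 and 0.89 ± 0.09. NDC80, which couples kinetochores to microtubules, stood at 9.04, 10.6 and 9.19 TPM at 0 h, 25.1, 23.4 and 23.1 TPM at 8 h and 24.5, 23.5 and 22.6 TPM at 16 h. Its treated libraries were all more than 2-fold above DMSO and did not differ by time (-0.02 ± 0.10 from 8 h to 16 h, adjusted p = 0.91). MKI67, the proliferation marker, and CCNA2, cyclin A2, fell from 8 h to 16 h (-0.36 ± 0.07 and -0.34 ± 0.06). FZR1, which activates the anaphase-promoting complex after mitosis, stood at 6.59, 9.43 and 8.31 TPM, 23.5, 20.1 and 20.6 TPM and 18.5, 18.4 and 19.96 TPM.

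Of genes of DNA replication, 14 of 39 rose, 10 fell and 15 missed the threshold at 8 h, near the shares of all genes (42.6% that rose and 22.8% that fell). With median-ratio scaling 8 rose and 18 fell, where all genes rose and fell about equally often. At 16 h 11 of 39 rose, 17 fell and 11 missed the threshold, and from 8 h to 16 h 1 of 39 rose, 11 fell and 27 missed the threshold. RRM2, a subunit of ribonucleotide reductase, stood at 162, 118 and 118 TPM at 8 h and 85.7, 84.6 and 83.5 TPM at 16 h (-0.63 ± 0.08, adjusted p = 9.9e-10). The cyclin E genes CCNE1 and CCNE2 fell over the same hours (-0.39 ± 0.06 and -0.45 ± 0.07). PRIM2, a primase subunit, was an exception at 16 h (0.65 ± 0.07).

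Ribosome biogenesis factors fell further with time. Of 46 listed 45 were kept, and at 8 h 9 of 45 rose, 28 fell and 8 missed the threshold, at a median of -0.16. At 16 h 5 of 45 rose, 35 fell and 5 missed the threshold, at -0.37, and from 8 h to 16 h 3 of 45 rose, 30 fell and 12 missed the threshold, at -0.18. RRP12, which helps export ribosomal subunits, stood at 20.9, 20.6 and 20.6 TPM at 0 h, 17.2, 15.1 and 14.5 TPM at 8 h and 12.7, 12.7 and 12.3 TPM at 16 h (-0.68 ± 0.05, adjusted p = 3.4e-21 at 16 h). MRTO4, a factor of the large subunit stalk, fell by 0.65 ± 0.04 and RRS1, which acts in assembly of the large subunit, by 0.82 ± 0.05. NOP16 fell from 8 h to 16 h (-0.37 ± 0.09). POLR1E, a subunit of RNA polymerase I, rose (0.76 ± 0.10 at 8 h and 0.71 ± 0.10 at 16 h). MYC, which drives many of these genes, was higher at 16 h than at 0 h (0.37 ± 0.09, adjusted p = 0.00012), from 68.5, 71.7 and 67.3 TPM to 86.8, 89.9 and 92.04 TPM.

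Genes of glycolysis fell more often than they rose, with 8 of 23 rose, 13 fell and 2 missed the threshold at 8 h (2 and 13 with median-ratio scaling) and 7 of 23 rose, 13 fell and 3 missed the threshold at 16 h, at a median of -0.23. The shares of all genes that rose and fell were 42.6% and 22.8% at 8 h and 43.3% and 26.6% at 16 h. From 8 h to 16 h 2 of 23 rose, 14 fell and 7 missed the threshold. SLC2A1, the main glucose transporter of most dividing cells, stood at 16.2, 16.1 and 15.7 TPM, 10.3, 9.81 and 8.96 TPM and 6.62, 7.01 and 6.85 TPM at 0, 8 and 16 h. Each time lay wholly below the one before it, and the change at 16 h was -1.12 ± 0.04, adjusted p = 4.7e-33. PKM, pyruvate kinase, stood at 799, 802 and 794 TPM, 620.4, 667 and 637 TPM and 535, 531 and 534 TPM (-0.58 ± 0.03, adjusted p = 7e-27 at 16 h). ENO1, an enolase, fell by 0.47 ± 0.02 at 16 h. PFKL, a phosphofructokinase, and PFKFB4, which makes its activator fructose 2,6-bisphosphate, rose at 16 h (0.62 ± 0.11 and 0.61 ± 0.07).

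Cholesterol synthesis genes moved in much the same shares as all genes at 8 h. Of 31 listed 28 were kept, and at 8 h 12 of 28 rose, 6 fell and 10 missed the threshold, against 42.6% that rose and 22.8% that fell of all genes. With median-ratio scaling 9 rose and 8 fell, where all genes rose and fell about equally often. At 16 h 12 of 28 rose, 10 fell and 6 missed the threshold, and from 8 h to 16 h 3 of 28 rose, 11 fell and 14 missed the threshold (6 falls without 8 h replicate 2 and 7 without 16 h replicate 2). INSIG1, which holds the sterol sensor SCAP in the endoplasmic reticulum, stood at 49.6, 58.5 and 55.8 TPM at 0 h, 107.5, 111 and 119 TPM at 8 h and 84.7, 82.7 and 83.4 TPM at 16 h. Its 8 h libraries were the highest and its 16 h libraries stood between them and DMSO. INSIG1 rose by 1.03 ± 0.08, adjusted p = 9.9e-19 at 8 h and then fell by 0.42 ± 0.08. HMGCS1, which makes HMG-CoA, rose by 0.84 ± 0.12 at 8 h and 0.51 ± 0.12 at 16 h. ACAT2, the cytosolic thiolase that makes acetoacetyl-CoA, was lower than DMSO at both times (-0.40 ± 0.05 and -0.65 ± 0.05).

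**Figure D3:**
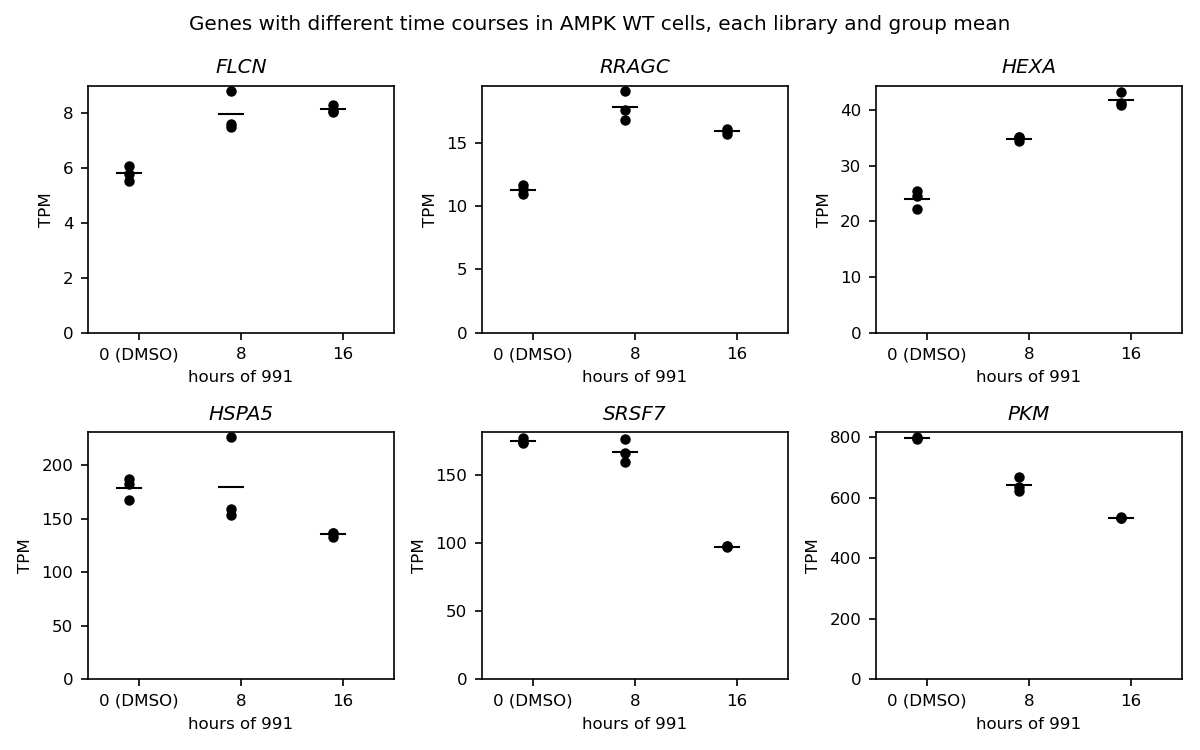
Levels (TPM, linear axis from 0) of 6 genes in each library of AMPK WT cells at 0 h of DMSO and 8 and 16 h of 991, with a line at each group mean. FLCN and RRAGC were at their height by 8 h, HEXA rose and PKM fell at each step, SRSF7 was lower only at 16 h, and HSPA5 had 1 high library at 8 h (226 TPM).

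Genes of the folliculin and Rag GTPase machinery, which tell mTORC1 and TFEB about amino acids at the lysosome, rose more often than they fell at both times. Of 16 listed 15 were kept, and at 8 h 10 of 15 rose, 2 fell and 3 missed the threshold, at a median of 0.20, against 42.6% that rose and 22.8% that fell of all genes. With median-ratio scaling 7 rose and 4 fell, where all genes rose and fell about equally often. Without rescaling, 7 to 11 rose at 8 h with 1 library left out. At 16 h 10 of 15 rose, 2 fell and 3 missed the threshold, at 0.24. FLCN stood at 5.54, 5.80 and 6.08 TPM at 0 h, 8.83, 7.61 and 7.5 TPM at 8 h and 8.06, 8.29 and 8.07 TPM at 16 h. Treated and DMSO libraries did not overlap, and the step from 8 h to 16 h did not pass (0.03 ± 0.06, adjusted p = 0.78). RRAGC, a Rag GTPase with the E-box window printed above (chromosome 1, 38838197 to 38859823), stood at 10.9, 11.7 and 11.3 TPM, 19.1, 16.8 and 17.6 TPM and 15.7, 15.9 and 16.1 TPM (0.61 ± 0.06, adjusted p = 3.6e-14 at 8 h). FNIP1, with E-boxes at 2 places (chromosome 5, 131641713 to 131796950), stood at 2.65, 2.76 and 2.98 TPM, 4.25, 4.35 and 4.09 TPM and 4.16, 3.93 and 3.91 TPM (0.46 ± 0.07, adjusted p = 2.9e-08 at 8 h, 0.40 ± 0.07, adjusted p = 8.6e-07 at 16 h). FNIP2, its paralog, rose by 0.59 ± 0.07 and 0.54 ± 0.07, and MITF, a relative of TFEB, by 0.60 ± 0.07 at 8 h. RRAGA, another Rag GTPase, went down (-0.35 ± 0.07 and -0.47 ± 0.07), as did LAMTOR4 of the Ragulator scaffold (-0.22 ± 0.04 at 8 h).

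Of 55 lysosomal hydrolases 45 were kept, and 26 of 45 rose, 8 fell and 11 missed the threshold at 8 h, at a median of 0.22. Over all genes 42.6% rose and 22.8% fell without rescaling. With median-ratio scaling, under which all genes rose and fell about equally often, the hydrolases gave 21 and 16. Falls of hydrolases numbered 4 without DMSO replicate 1. At 16 h 27 of 45 rose, 7 fell and 11 missed the threshold, when 43.3% of all genes rose and 26.6% fell. From 8 h to 16 h 16 of 45 rose, 5 fell and 24 missed the threshold. HEXA, a subunit of β-hexosaminidase (chromosome 15, 72343435 to 72376473), stood at 22.3, 25.5 and 24.6 TPM at 0 h, 34.4, 35.2 and 35.2 TPM at 8 h and 43.3, 41.3 and 40.9 TPM at 16 h. The times did not overlap (0.77 ± 0.05, adjusted p = 3.2e-23 at 16 h). HGSNAT, which acetylates heparan sulfate, rose by 0.84 ± 0.09 at 8 h, and SIAE, which removes acetyl groups from sialic acids, by 0.88 ± 0.06 at 16 h. HYAL2, a hyaluronidase, was lower at 16 h (-0.38 ± 0.05), and NAGLU, another heparan sulfate enzyme, fell from 8 h to 16 h (-0.51 ± 0.09). Among 38 membrane proteins 19 rose and 4 fell at 8 h, and 20 and 5 at 16 h, or 14 and 8, and 14 and 10, with median-ratio scaling. LAMP2, an abundant membrane glycoprotein, rose by 0.48 ± 0.04 at 16 h, and MCOLN1, the calcium channel of lysosomes, was lower at both times (-0.33 ± 0.07 and -0.29 ± 0.07). For the V-ATPase, the proton pump that acidifies lysosomes, 6 of 19 subunits rose and 6 fell at either time, and median-ratio scaling gave 3 and 10, and 4 and 12.

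Autophagy genes rose in 26 of 45 cases at 8 h with 6 falls, at a median of 0.17 against 0.09 over all genes (21 and 7 with median-ratio scaling), and in 30 with 5 falls at 16 h, at 0.20 against 0.08 (24 and 9 with median-ratio scaling). Of all genes 42.6% rose at 8 h and 43.3% at 16 h without rescaling, and fewer with median-ratio scaling. ATG10, an E2-like enzyme of the ATG12 conjugation, stood at 1.48, 1.52 and 2.01 TPM at 0 h, 6.19, 5.83 and 6.41 TPM at 8 h and 5.04, 5.51 and 5.45 TPM at 16 h. Its lowest treated library stood above 2-fold its highest DMSO library (1.43 ± 0.09, adjusted p = 5.7e-23 at 8 h). PIK3C3, the lipid kinase that starts autophagosomes, rose by 1.00 ± 0.10 and ULK2, an initiating kinase, by 0.95 ± 0.07 at 16 h. WIPI1, which binds early autophagosomes, rose at 16 h (0.57 ± 0.08, adjusted p = 2.9e-09). ULK1, the relative of ULK2 that AMPK phosphorylates, fell from 8 h to 16 h (-0.23 ± 0.06). BECN1, a subunit of the PIK3C3 complex, was lower at both times (-0.26 ± 0.05 and -0.22 ± 0.05). Of the AMPK subunits and upstream kinase parts, 7 of 10 rose at 8 h and 8 at 16 h, and none fell (quantile normalization gave 1 fall at 16 h). They included PRKAG2, a γ subunit (0.61 ± 0.08 at 8 h), PRKAB2, a β subunit (0.56 ± 0.04), and STRADA, a partner of the AMPK kinase LKB1 (0.78 ± 0.06).

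Nuclear genes of mitochondria were counted in 3 lists. Of 17 listed genes of PGC-1 coactivators, their partners and mitochondrial transcription factors 14 were kept. PPARGC1A, the gene of PGC1A, was below the filter, at means of 0.554, 0.305 and 0.303 TPM at 0, 8 and 16 h, and was not tested. Of the 14, 7 rose, 3 fell and 4 missed the threshold at 8 h, near the shares of all genes (42.6% that rose and 22.8% that fell). At 16 h 7 of 14 rose, 3 fell and 4 missed the threshold, or 7 and 6 with either other scaling. TFB1M, a mitochondrial rRNA methyltransferase, rose by 0.74 ± 0.10 at 8 h and NRF1, a regulator of respiratory genes, by 0.65 ± 0.09. ESRRA, the nuclear receptor ERRα, stood at 13.98, 12.4 and 12.7 TPM at 0 h, 12.8, 13.9 and 14.4 TPM at 8 h and 15.99, 16.7 and 17.2 TPM at 16 h. Its rise from 8 h to 16 h passed (0.26 ± 0.07, adjusted p = 0.0043), but not without 8 h replicate 1 (0.22, adjusted p = 0.056). TFB2M, the mitochondrial transcription factor, fell by 0.49 ± 0.08 at 16 h. At 8 h the respiratory chain went down more often than up, and 3 of 75 rose, 37 fell and 35 missed the threshold, at a median of -0.08, with 1 and 56 under median-ratio scaling and 7 and 18 under quantile normalization. At 16 h 12 of 75 rose, 30 fell and 33 missed the threshold, with 6 and 51 or, the other way round, 22 and 17 under those scalings. CYCS, cytochrome c, fell between 8 h and 16 h (-0.26 ± 0.07, adjusted p = 0.0032), from 46.9, 43.01 and 46.8 to 38.8, 38.1 and 36.7 TPM. NDUFA7, a complex I subunit, rose at both times (0.25 ± 0.04 and 0.45 ± 0.04). Proteins of the mitochondrial ribosome fell more often than they rose, in 32 against 15 of 75 at 8 h and 37 against 9 at 16 h. Median-ratio scaling gave 48 against 4 and 54 against 4, and without DMSO replicate 1 the rises numbered 7 and 5. MRPL27 fell by 0.65 ± 0.05 at 16 h and MRPL24 rose by 0.80 ± 0.06.

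**Figure D4:**
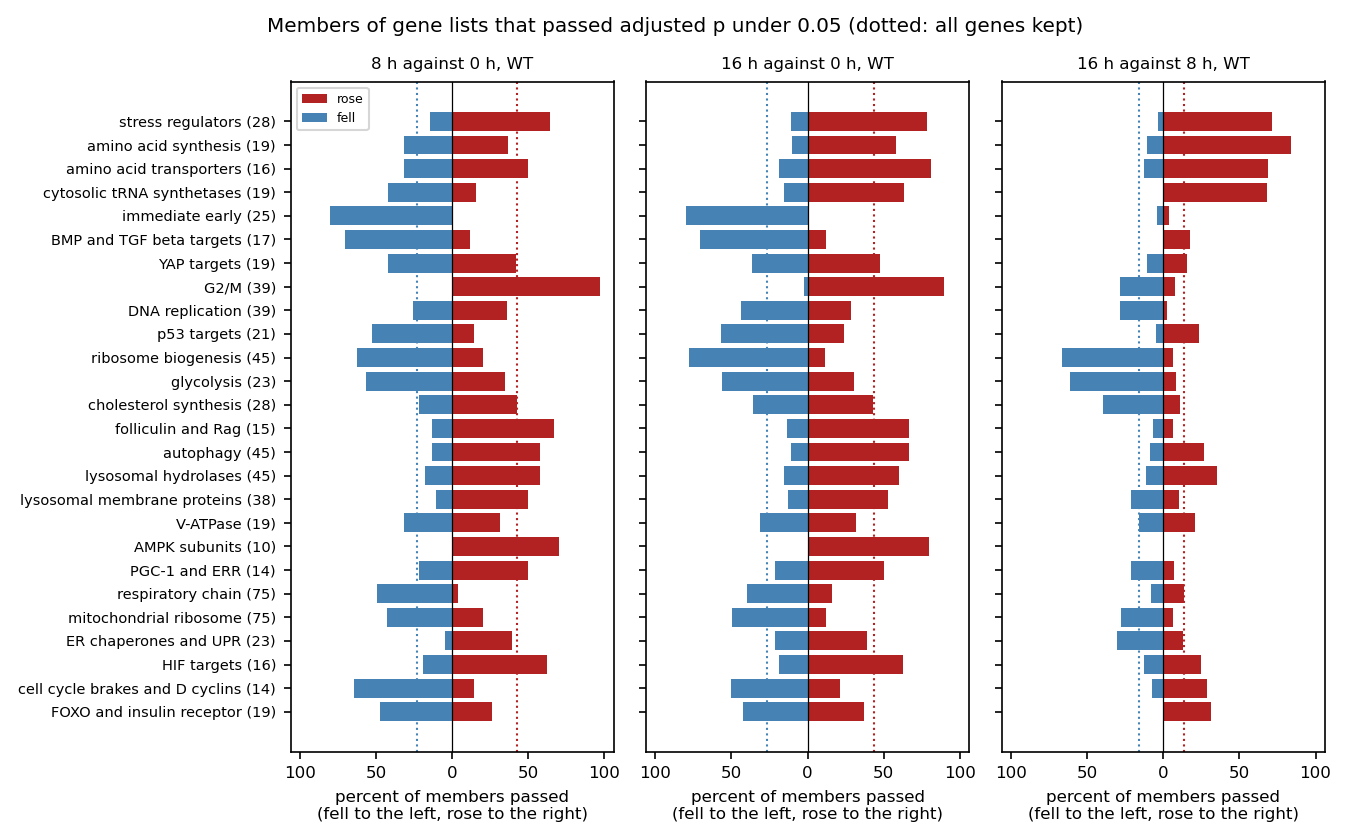
Percent of the kept members of each gene list (number in brackets) that rose (right) or fell (left) at an adjusted p under 0.05 in 3 comparisons of AMPK WT cells, with dotted lines at the percent of all genes kept. Between 8 h and 16 h the bars of stress regulators, amino acid genes and tRNA synthetases reach far to the right of the 13.7% of all genes, and those of ribosome biogenesis and glycolysis far to the left of the 16.2%.

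The genes with the largest falls from 8 h to 16 h differed in where they stood at 8 h. PRPF39 and NKTR were then above DMSO, while SRSF5 and TFRC were already below it. RBM14, a nuclear RNA-binding coactivator (chromosome 11, 66616582 to 66629926), stood at 33.4, 41.5 and 39.8 TPM at 0 h, 55.1, 38.8 and 37.1 TPM at 8 h and 17.4, 19.1 and 18.4 TPM at 16 h. All 16 h libraries lay below all others, and 8 h replicate 1 was the highest (-1.19 ± 0.16, adjusted p = 2.4e-08). SRSF7, a splicing factor of the SR family (chromosome 2, 38743599 to 38751494), stood at 173, 174 and 177 TPM, 176, 159 and 166 TPM and 97.3, 97.3 and 96.9 TPM (-0.77 ± 0.05, adjusted p = 3.1e-22). SRSF5, of the same family, had already fallen at 8 h (175, 192 and 192 TPM to 129, 91.1 and 86.9 TPM) and stood at 63.6, 58.4 and 55.4 TPM at 16 h. PRPF39, a U1 snRNP protein, rose to 26.3, 22.4 and 21.9 TPM at 8 h from 18.1, 13.7 and 14.5 TPM and fell back to 12.9, 13.04 and 11.6 TPM. NKTR, a cyclophilin with an SR domain, likewise went from 7.70 ± 0.559 to 13.03 ± 0.912 and back to 7.10 ± 0.451 TPM. TFRC, the transferrin receptor that brings in iron, stood at 52.5 to 57.4 TPM at 0 h, 49.1 to 51.9 TPM at 8 h and 28.9 to 30.05 TPM at 16 h (-0.77 ± 0.06, adjusted p = 2.2e-18). RBM25, another splicing regulator, was among the largest rises at 8 h (18.8, 19.7 and 20.1 TPM to 49, 46.8 and 53.2 TPM) and stood at 35.3, 33.5 and 34.5 TPM at 16 h.

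Some large rises were complete by 8 h and others grew to 16 h. IRS4, an adaptor of insulin and IGF receptors that HEK cells express strongly (chromosome X, 108732497 to 108736377), stood at 28.9, 49.8 and 43.7 TPM at 0 h, 101.97, 123 and 119 TPM at 8 h and 116, 116 and 114 TPM at 16 h. DMSO replicate 1 was its lowest library, and treated and DMSO libraries did not overlap (1.5 ± 0.17, adjusted p = 6.2e-12 at 8 h). ARNT2, a partner of PAS domain factors, stood at 1.40 to 2.62 TPM at 0 h and at 5.75 to 6.55 TPM and 5.68 to 6.31 TPM at 8 and 16 h. TTLL1, a tubulin polyglutamylase subunit, climbed through 1.93, 2.30 and 1.96 TPM and 3.16, 5.21 and 4.81 TPM to 8.38, 8.16 and 8.38 TPM (0.81 ± 0.11, adjusted p = 1.4e-08 from 8 h). DDR2, a collagen receptor kinase, went from 3.12 ± 0.151 TPM to 5.51 ± 0.794 and 10.3 ± 0.0401 TPM. RHOT1, the mitochondrial GTPase Miro1, went from 5.91 ± 0.596 TPM to 12.4 ± 1.17 and 17.3 ± 0.238 TPM, and KIZ, which stabilises spindle poles, from 4.34 ± 0.713 TPM to 9.98 ± 0.750 and 13.3 ± 0.452 TPM.

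AMPK KO cells passed through the same hours with 991, and many genes changed in them too. How many genes passed in both genotypes was not counted. Against their own DMSO libraries 4143 genes rose (31.9%) and 3181 fell (24.5%) in KO cells at 8 h, and 4658 rose (35.9%) and 3514 fell (27.1%) at 16 h. The difference of the responses, tested as an interaction in limma, was higher in KO for 692 genes (5.33%) and lower for 2161 (16.7%) at 8 h, or 1278 and 1215 with median-ratio scaling. At 16 h it was higher for 672 (5.18%) and lower for 1366 (10.5%), or 927 and 929 with that scaling. NUPR1 reached 5.90, 5.10 and 5.26 TPM at 8 h and 14.9, 15.2 and 15.1 TPM at 16 h in KO cells, from 1.24, 0.910 and 1.12 TPM. DDIT4 reached 109.4, 119 and 130.4 TPM at 8 h in KO cells from 23.7, 34.5 and 38.3 TPM, a response larger than in WT cells by 0.60 ± 0.21, adjusted p = 0.031. That difference in DDIT4 did not pass without 8 h replicate 1 of WT cells (0.28, adjusted p = 0.33), nor without 3 other single libraries (0.40 to 0.55), nor with the 4 groups fitted alone. CHAC1 reached 23.8, 26.01 and 22.3 TPM at 8 h and 22.03, 25.5 and 23.9 TPM at 16 h in KO cells, and PCK2 55.7, 58.2 and 53.4 TPM at 16 h. Both 16 h responses exceeded those of WT cells (0.92 ± 0.22, adjusted p = 0.0022 for CHAC1 and 0.67 ± 0.12, adjusted p = 2.8e-05 for PCK2). IRS4 was unsteady in KO cells under DMSO (47.1, 103.7 and 96.9 TPM) and reached 100.3, 111 and 105.2 TPM at 8 h, a smaller response than in WT cells (-1.07 ± 0.24, adjusted p = 0.00072). ATG10 reached 4.06, 3.42 and 3.82 TPM at 8 h in KO cells from 1.25, 1.69 and 1.25 TPM, also a smaller response (-0.43 ± 0.12, adjusted p = 0.0076). Neither the IRS4 nor the ATG10 difference passed with those 4 groups fitted alone (adjusted p = 0.089 and 0.076). Both genes were picked for large rises in the same WT libraries, a choice that favours a smaller response in KO cells.

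By list, the response of amino acid synthesis genes was higher in KO cells for 13 of 19 and lower for 1 at 8 h, and for 14 and 1 at 16 h. For stress regulators the numbers were 13 and 2 of 28 at 8 h and 4 and 1 at 16 h, and for tRNA synthetases 12 and 0 of 19 at 8 h. In the other direction stood genes of G2 phase and mitosis, with a lower response in KO for 29 of 39 at 8 h and 26 at 16 h, and autophagy genes, for 16 of 45 at 8 h and 15 at 16 h. Of all genes 5.33% had a higher and 16.7% a lower response in KO at 8 h, and 5.18% and 10.5% at 16 h. Median-ratio scaling gave 20 and 20 mitosis genes and 10 and 10 autophagy genes with a lower response, when fewer of all genes were lower too. Fitted on the 4 groups alone, the 8 h numbers were 5 for stress regulators, 12 for mitosis and 5 for autophagy, and fewer of all genes passed in either direction. List counts of the KO comparison were not repeated with single libraries left out. In WT cells, replicate 1 was the lowest 8 h library for NUPR1, DDIT4, CHAC1, ASNS and YARS. A low WT library raises the 8 h difference (KO minus WT) of such genes. Of the folliculin and Rag genes 5 of 15 were lower and 1 higher at 8 h, and 6 and 1 at 16 h.

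The 24 genes named as the largest rises and falls at each time were looked up in the control arms of the 4 other experiments, which were normalized apart from the AMPK table and hold an estimated 11500000 to 21200000 reads per library. Of the 12 largest rises at 16 h, 12 rose in TFEB_TFE3_WT and 12 in ESRRA_WT, 8 in FNIP1_WT, and 11 of the 11 kept in siControl, and of all genes 42.5%, 32.5%, 12.1% and 45.9% rose in those arms. Of the 12 largest falls at 16 h, 7 fell in TFEB_TFE3_WT, and of 10 kept 9 fell in ESRRA_WT, 6 in FNIP1_WT and 5 in siControl, against 18.9%, 15.6%, 5.07% and 13% of all genes. At 8 h the rises repeated in 11, 12, 6 and 10 genes and the falls in 7 of 12 and then 8, 4 and 5 of 10, against 33.7%, 28%, 14% and 36.9% of all genes rising and 17.8%, 15.3%, 4.17% and 11.4% falling. NUPR1 changed by 2.76, 1.58, 1.71 and 1.51 in those arms at 16 h, against 2.54 in AMPK WT cells. IRS4 gave 0.31, 0.51, 0.41 and 0.27 (not passed in FNIP1_WT), against 1.51 in AMPK WT cells. NEAT1 rose in TFEB_TFE3_WT (1.19) and siControl (1.498), against -2.21 in AMPK WT cells, and did not pass in ESRRA_WT (0.33) or FNIP1_WT (0.47). HOXB4, a homeobox gene, gave 0.14, -0.40, -0.32 and 0.06 against -1.76, and passed among these arms in ESRRA_WT only. How the sizes differ between arms was not tested, since each table was normalized by itself.

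**Figure D5:**
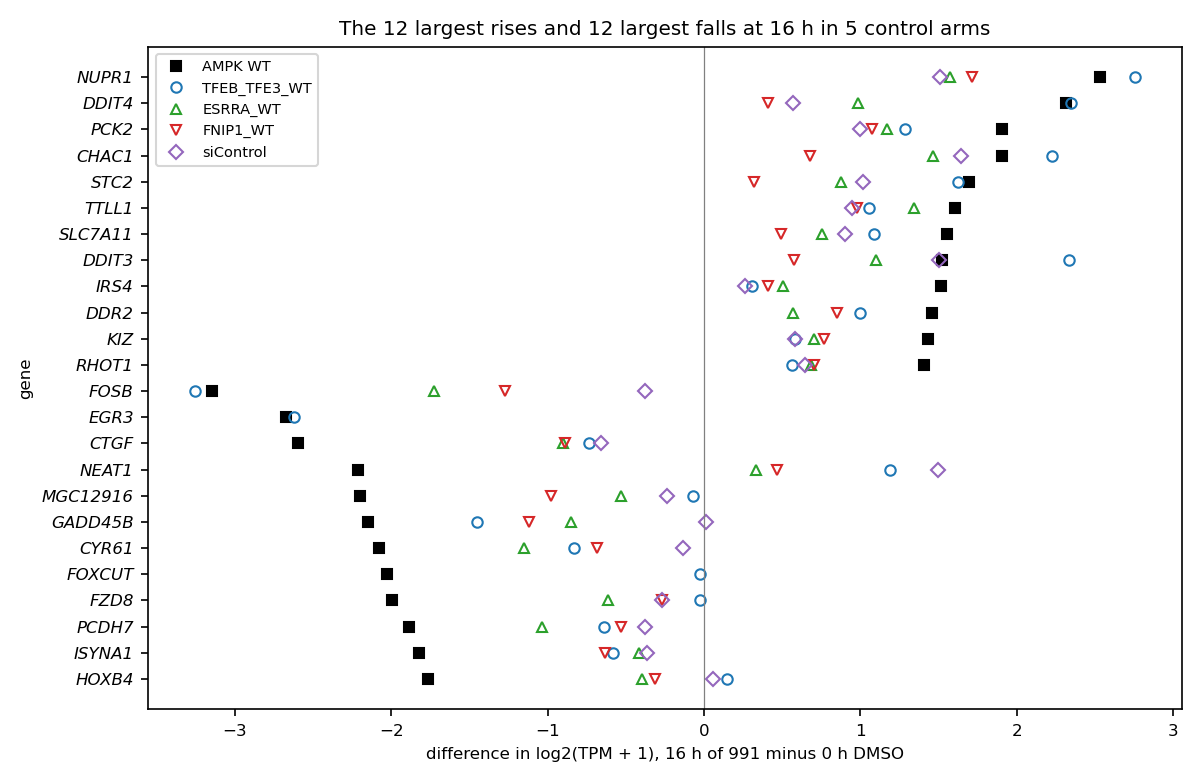
Difference in log2(TPM + 1) between 16 h of 991 and 0 h of DMSO for the 12 largest rises and 12 largest falls of AMPK WT cells (squares), and the same genes in 4 other control arms (open symbols), for genes kept in each arm. Symbols of the rises all lie right of 0, while NEAT1 lies left of 0 in AMPK WT cells and right of it in the 4 others, where it passed in TFEB_TFE3_WT and siControl.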

How the data were processed

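RNA was polyadenylated per the labels. FastQC, STAR, HOMER and the build GRCh38 are named in the submitters' processing notes. Versions and strand setting are not given in the sources used here, so overlapping genes cannot be told apart. The deposited TPM were made by the authors, in 1 table per experiment, with 1 transcript per gene.

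Groups follow titles and label tags. Steps between low TPM gave the worth of 1 read, with at least 98.8% of low values whole within 0.15, and from it the estimated depth. Values were log2(TPM + 1). Over the 102 libraries of the AMPK table, limma 3.58.1 in R 4.3.3 estimated 1 mean for each group (variances following the mean level), with p-values adjusted by Benjamini-Hochberg over the 12976 genes and called at 0.05. Gene lists (percentages and medians, no set test) and named genes were chosen with earlier results of these data known. Named are a panel of 53 genes, the 12 largest rises and falls per comparison (at least 1.5-fold, 5 TPM, no overlap between groups), and the 3 largest per list. Promoter windows were read from RefSeq. Fits were tested on simulated data. Alternatives were quantile normalization, scaling by median ratios, no filter, a pseudocount of 0.1, only the groups compared, a replicate block, single libraries left out and, added after seeing the data, limma's voom on recovered reads. Figures used matplotlib 3.10.9.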

Additional observations from a re-analysis of the deposited data

Results flagged for a closer look

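The responses of 9 genes, among the 6 largest rises and 6 largest falls at each time in AMPK WT cells, differed from those of AMPK KO cells, as tested by the interaction in limma. Differences are KO minus WT, each response being 991 minus the DMSO of the same cells. The genes were chosen for large WT responses in the same WT libraries, so the choice itself favours a weaker response in KO cells.

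At 8 h IRS4 (-1.073, adjusted p = 0.00072) and ATG10 (-0.43, adjusted p = 0.0076) rose less in KO cells, and DDIT4 (0.6, adjusted p = 0.031) rose more. With only the 4 groups compared in the fit, the differences of IRS4 (adjusted p = 0.089), ATG10 (adjusted p = 0.076) and DDIT4 (adjusted p = 0.27) did not pass. That of DDIT4 was lowest without 8 h replicate 1 of WT cells (0.28, adjusted p = 0.33). The response of FOSB was less negative in KO cells at 8 h (2.015, adjusted p = 0.0012) and at 16 h (2.222, adjusted p = 0.00048). Its KO libraries stood at 3.51, 1.27 and 1.28 TPM under DMSO and 0.572, 0.385 and 0.582 TPM at 16 h, against 26.1, 5.37 and 9.57 TPM in WT cells under DMSO. In the fit of 4 groups the 8 h difference of FOSB did not pass (adjusted p = 0.054). The response of EGR3 was less negative as well, by 2.107 at 8 h (adjusted p = 1.1e-06) and 2.175 at 16 h (adjusted p = 4.8e-07), with 1.08, 0.209 and 0.252 TPM in KO cells under DMSO. From so low a start EGR3 could hardly fall on the log2(TPM + 1) scale, and FOSB only by less than in WT cells. These 2 differences therefore cannot be read apart from the lower KO levels under DMSO. The CTGF response was less negative at 8 h (0.811, adjusted p = 0.048), with KO levels going from 34.2, 16.9 and 19.3 TPM to 5.99, 4.93 and 4.93 TPM. The GADD45B response was less negative at 16 h (0.986, adjusted p = 0.027). The differences in CTGF (0.52, adjusted p = 0.25) and GADD45B (0.65, adjusted p = 0.19) did not pass without DMSO replicate 1 of WT cells, nor with the 4 groups alone (adjusted p = 0.22 and 0.12). With voom on recovered reads the differences of ATG10, FOSB, EGR3, CTGF, GADD45B and DDIT4 did not pass (adjusted p = 0.055 to 0.47). PCK2 (0.674, adjusted p = 2.8e-05) and CHAC1 (0.917, adjusted p = 0.0022) rose more in KO cells at 16 h.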

How the results depend on the processing

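Of 2887 values of 211 single-gene results under other settings, 2815 kept both direction and side of the threshold, 38 no longer passed, 15 newly passed and 19 changed sign, and of 280 counts of genes 254 stayed within 1.5 times. The named rises and falls of AMPK WT cells, the 12 largest in each direction and comparison, kept direction and call under every setting run. They were chosen in these same libraries for large changes without overlap, which favours that outcome, and they are among the 211 results. Depth limited genes near 1 TPM, where the log2(TPM + 1) scale shrinks changes. The cause of the moves below was not tested.

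With median-ratio scaling 645 genes rose at least 1.5-fold at 8 h, 4 amino acid synthesis genes rose at 8 h, 3 and 4 V-ATPase subunits rose at 8 and 16 h, 56 and 51 respiratory chain genes fell, and the KO difference at 8 h was higher for 1278 and lower for 1215 genes, 10 of them autophagy genes. Quantile normalization gave 839 falls of at least 1.5-fold at 8 h, 85 rises of that size from 8 h to 16 h, and 1140 higher and 1322 lower KO differences at 8 h. A pseudocount of 0.1 gave 1621 and 1738 rises of at least 1.5-fold at 8 and 16 h, and 104 rises and 216 falls from 8 h to 16 h. Without a filter on low values, when more genes were tested, 5495 genes fell at 16 h. Voom on recovered reads, chosen after seeing the data, gave 1561 rises and 806 falls of at least 1.5-fold at 8 h, 122 and 241 from 8 h to 16 h, and 1432 lower KO differences at 8 h. With only the groups compared in the fit, which leaves fewer libraries, the KO difference at 8 h was higher for 213 and lower for 689 genes (5 stress regulators higher, 12 mitosis genes and 5 autophagy genes lower) and at 16 h lower for 3 HIF targets. That fit also gave 4 rises of amino acid synthesis genes and 5 falls of tRNA synthetases at 8 h, and 7 falls of mitosis genes from 8 h to 16 h. In FNIP1_WT at 8 h it gave 11 rises and 8 falls, and median-ratio scaling 7 falls.

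With single libraries left out, genes higher at 16 h than at 8 h numbered 1137 to 1668 and genes lower 1160 to 1988, of which 35 to 74 and 50 to 122 at least 1.5-fold. The lowest of these 4 counts came without 8 h replicate 1. By list, falls at 8 h went from 5 to 3 for amino acid transporters and from 4 to 1 for lysosomal membrane proteins without DMSO replicate 1, and falls of tRNA synthetases from 8 to 4 without 8 h replicate 1. The KO difference of FZD8 at 8 h, which did not pass, was -0.452 to 0.528 (0.028 with median-ratio scaling and 0.178 with quantile normalization), that of NEAT1 at 16 h -0.14 to 0.49, the 16 h change of GDF15 -0.164 to 0.332 (-0.03 with median-ratio scaling), and the changes from 8 h to 16 h of NDC80 -0.047 to 0.019 (0.003 with median-ratio scaling) and of FLCN -0.009 to 0.096.

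Deviations of same-numbered WT libraries from their group means correlated at -0.02 to 0.28, and not every library correlated best with its own number, so the numbers were not taken to pair the libraries. With the replicate block 5658 genes rose and 3113 fell at 8 h, 5721 and 3578 at 16 h, and 1971 and 2381 from 8 h to 16 h, and the KO difference was higher for 832 and lower for 2499 genes at 8 h and for 801 and 1644 at 16 h. The block moved none of these counts by over 1.5 times.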

Other observations

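Targets of the hypoxia factor HIF were among the gene groups not described above. Of 18 listed 16 were kept, and 10 of 16 rose, 3 fell and 3 missed the threshold at 8 h and 10 of 16 rose, 3 fell and 3 missed the threshold at 16 h, at medians of 0.21 and 0.25 against 0.09 and 0.08 for all genes, of which 42.6% and 43.3% rose. With median-ratio scaling 7 and 8 rose, and fewer of all genes rose as well. VEGFA, the angiogenic growth factor gene, stood at 7.48, 7.14 and 7.27 TPM at 0 h, 9.82, 11.3 and 11.1 TPM at 8 h and 14.2, 13.7 and 13.4 TPM at 16 h (0.83 ± 0.07, adjusted p = 2.2e-18 at 16 h, limma). P4HA1 and P4HA2, collagen prolyl hydroxylase subunits, rose by 0.79 ± 0.06 and 1.00 ± 0.08 at 16 h. ADM, the vasodilator adrenomedullin, fell from 12.1, 7.38 and 8.06 TPM to 3.87, 3.35 and 2.81 TPM at 8 h and 2.90, 2.78 and 3.16 TPM at 16 h (-1.34 ± 0.17, adjusted p = 1.4e-10), and EGLN3, a HIF prolyl hydroxylase, fell by 0.89 ± 0.11. In KO cells the 16 h response of this list was lower than in WT cells for 7 of 16 genes, or 3 with the 4 groups compared fitted alone, against 10.5% of all genes.

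Inhibitors of the cell cycle and D cyclins fell in 9 of 14 cases at 8 h and rose in 2, against 7 and 3 at 16 h. The shares of all genes that rose and fell were 42.6% and 22.8% at 8 h and 43.3% and 26.6% at 16 h. CDKN2B, which encodes the inhibitor p15, stood at 12.1, 6.07 and 7.38 TPM at 0 h, 3.14, 2.89 and 2.92 TPM at 8 h and 3.62, 3.54 and 3.50 TPM at 16 h (-1.21 ± 0.22, adjusted p = 2.4e-06 at 8 h). RBL2, a relative of the retinoblastoma protein, rose by 0.74 ± 0.06 at 8 h. Among 19 genes of FOXO targets and insulin signalling 5 rose and 9 fell at 8 h, and 7 and 8 at 16 h, beside the same shares of all genes. INSR, the insulin receptor gene, stood at 1.95, 2.04 and 1.93 TPM at 0 h, 4.02, 4.04 and 4.13 TPM at 8 h and 3.65, 3.82 and 3.69 TPM at 16 h (0.77 ± 0.06, adjusted p = 1.1e-17 at 8 h). TRIB1, a pseudokinase gene, fell by 0.91 ± 0.08 at 8 h.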
